A study of Mus musculus with 3 samples.

Results

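Fibro-adipogenic progenitors (FAPs) are the Pdgfra-expressing mesenchymal cells of skeletal muscle. After injury they expand, secrete matrix and cytokines, and signal to infiltrating immune cells and to muscle stem cells before they are cleared or settle back. The cells described here are FAPs that carried high levels of Cxcl10, the transcript of an interferon-inducible chemokine that attracts CXCR3-bearing lymphocytes. They were selected by UMI counts, a UMI being 1 counted transcript molecule. A cell needed at least 500 detected genes, under 10% mitochondrial UMIs, at least 2 UMIs of Pdgfra and none of Ptprc (leukocytes), Pecam1 (endothelium), Cdh15 (satellite cells) or Tnmd (tenocytes). This gate held 2896 of 35247 kept cells. Within it, 1900 cells had under 2 UMIs of Pi16 and Dpp4 together, which mark the adventitial FAP subset, and under 5 UMIs of 5 cell cycle genes. Of these eligible cells, 901 had at least 3 Cxcl10 UMIs and are called Cxcl10 FAPs. The remaining 999, with 0 to 2 Cxcl10 UMIs, are called the other eligible FAPs and were the comparison population. Cxcl10 chose the cells, so its own difference was described and not tested.

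The study injected the tibialis anterior of C57BL/6J mice with barium chloride, which kills muscle fibres, and sequenced single cells 4 days later. Meteorin-like (METRNL) is a secreted myokine, and the recombinant protein (rMETRNL) or its vehicle, phosphate-buffered saline (PBS), was given into the muscle right after the injury and on the days that followed. There was 1 droplet library each from young mice given PBS, old mice given PBS and old mice given rMETRNL, and each was a pool of 3 mice. Young mice were 3 to 4 months old and old mice 24 to 26 months. Every library came from injured muscle, so no uninjured level is given. No test between libraries was possible, and their ratios carry exact 95% intervals that cover counting error only. Cxcl10 FAPs and the other eligible FAPs of the same library could be compared over the 3 libraries. The test was edgeR's quasi-likelihood test on summed UMIs with the library as a block, and p-values were adjusted by Benjamini-Hochberg over all genes tested. These p-values measure how evenly a difference held over 3 pooled libraries.

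Libraries held 179295668 to 228966697 UMIs, and kept cells had a median of 13907.5 to 15609 UMIs. Cxcl10 FAPs were well covered, at median UMIs per cell of 26299 in young PBS, 23688 for old PBS and 24990 for old rMETRNL. The other eligible FAPs had medians of 25318, 19754 and 23827. The libraries shared 58 to 80 cell barcodes in pairs, and 0 barcodes belonged to Cxcl10 FAPs in both libraries of a pair, while 1 or 2 Cxcl10 FAPs per pair carried a barcode that also occurred in the other library. Scrublet, which scores likely doublets, called 142 to 209 cells per library and 0, 1 and 1 of the Cxcl10 FAPs.

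CXCL10 is produced where interferon and NF-kB signalling meet. Interferons act through JAK kinases and STAT and IRF transcription factors at interferon-stimulated response elements, whereas NF-kB is activated by TNF, interleukin-1 and toll-like receptors. The gene on chromosome 5 is a classical target of both, and its promoter is shown for that reason. RefSeq promoters run from 250 bases before the annotated start to 50 after it and are given 5′ to 3′ on the strand of the gene in GRCm38.p6. Capitals mark the response element core GAAANNGAA and the NF-kB forms GGANNTTCC and GGGANTTCC, which were searched on both strands and can overlap one another. The Cxcl10 window, chr5:92348840-92349139 on the minus strand, held 1 response element core that began 213 bases before the start, and NF-kB matches that began 158 and 103 bases before it.
Cxcl10: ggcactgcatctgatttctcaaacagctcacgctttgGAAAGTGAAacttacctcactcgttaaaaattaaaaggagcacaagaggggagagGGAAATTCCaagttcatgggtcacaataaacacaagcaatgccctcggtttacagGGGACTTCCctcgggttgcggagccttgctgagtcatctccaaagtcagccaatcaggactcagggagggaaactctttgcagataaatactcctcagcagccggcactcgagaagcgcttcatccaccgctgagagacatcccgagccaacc

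The promoters of 4 genes that were higher in Cxcl10 FAPs are shown as examples from the interferon and NF-kB lists described next, and those of Gbp2 and Nfkbia hold both kinds of motif. Rsad2 encodes the antiviral enzyme viperin, and its window (chr12:26456403-26456702, minus strand) held 1 core. Ifit1, an antiviral RNA-binding protein (chr19:34640639-34640938, plus strand), had cores that began 109, 103 and 84 bases before the start, the first and second of which overlap. The guanylate-binding GTPase gene Gbp2 (chr3:142620413-142620712, plus strand) had 1 core 58 bases before its start and an NF-kB match 7 bases after it. Nfkbia encodes the NF-kB inhibitor that NF-kB itself induces (chr12:55492598-55492897, minus strand), and it held NF-kB matches 178 and 29 bases before the start and a core 53 bases before it. The window of Acta2, a gene that was lower, held none of these motifs.
Rsad2: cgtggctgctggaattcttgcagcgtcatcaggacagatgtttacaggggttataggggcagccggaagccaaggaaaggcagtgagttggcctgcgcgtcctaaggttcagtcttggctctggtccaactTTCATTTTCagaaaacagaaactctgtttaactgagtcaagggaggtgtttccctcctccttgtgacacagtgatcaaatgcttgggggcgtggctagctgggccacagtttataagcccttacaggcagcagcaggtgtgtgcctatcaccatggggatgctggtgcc
Ifit1: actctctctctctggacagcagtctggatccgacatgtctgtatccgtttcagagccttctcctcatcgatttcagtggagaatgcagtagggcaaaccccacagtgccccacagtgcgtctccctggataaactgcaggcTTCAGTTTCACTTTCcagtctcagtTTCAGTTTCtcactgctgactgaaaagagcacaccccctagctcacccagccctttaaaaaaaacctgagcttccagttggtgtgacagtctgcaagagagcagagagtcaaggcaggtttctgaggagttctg
Gbp2: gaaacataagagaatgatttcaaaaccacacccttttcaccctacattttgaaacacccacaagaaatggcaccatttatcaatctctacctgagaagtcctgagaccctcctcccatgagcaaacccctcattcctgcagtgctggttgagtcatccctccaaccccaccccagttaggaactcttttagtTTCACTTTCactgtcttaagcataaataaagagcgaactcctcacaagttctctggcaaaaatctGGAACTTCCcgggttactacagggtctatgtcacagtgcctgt
Nfkbia: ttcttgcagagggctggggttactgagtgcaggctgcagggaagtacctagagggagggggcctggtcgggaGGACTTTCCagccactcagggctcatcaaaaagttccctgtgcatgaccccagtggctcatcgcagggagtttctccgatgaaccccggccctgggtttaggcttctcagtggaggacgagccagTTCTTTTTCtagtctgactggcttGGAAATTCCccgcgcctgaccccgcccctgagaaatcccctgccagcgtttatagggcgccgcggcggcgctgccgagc

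Cxcl10 UMIs in the eligible FAPs had no gap at the threshold, and fewer cells lay just above it than just below. In young PBS, 264 of 725 eligible cells had no Cxcl10 UMI, 86 had 1 and 29 had 2, whereas 9 had 3 and 9 had 4. In old PBS the counts were 195, 54 and 22 below the threshold and 10 and 10 just above it, out of 539. In old rMETRNL they were 250, 75 and 24 below and 12 and 8 just above, out of 636. The median of the Cxcl10 FAPs was 32 UMIs in young PBS, with 35.5 for old PBS and 32 for old rMETRNL, while their highest counts were 488, 291 and 263. Cells with 100 or more UMIs numbered 65, 39 and 45. Summed over cells, Cxcl10 made up 2157 counts per 1000000 UMIs (CPM) in the Cxcl10 FAPs of young PBS and 14.8 in the other eligible FAPs, 2135 and 18.3 in old PBS, and 2048 and 15.6 in old rMETRNL. These levels follow from the rule and are a description.

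**Figure D1:**
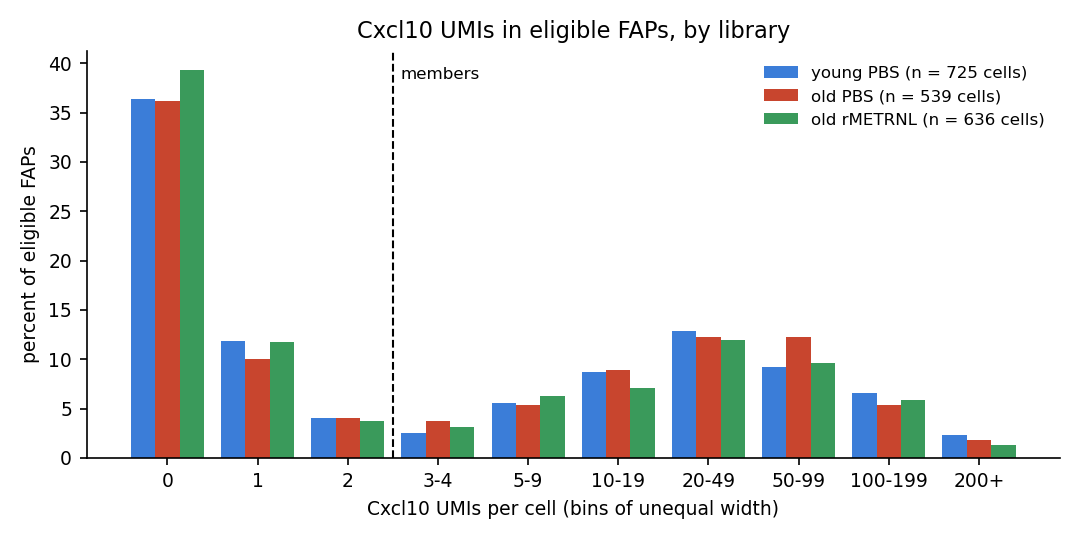
Distribution of Cxcl10 UMIs per cell (x axis, bins) as the percent of eligible FAPs (y axis) for each library. The largest bin is 0 UMIs, with 264 young PBS, 195 old PBS and 250 old rMETRNL cells. The bins widen to the right, so the heights of bins above 2 UMIs do not compare with those below, and no separate mode is read from them.

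Droplet libraries carry free RNA, so Cxcl10 was also counted in the other eligible FAPs and in myogenic cells. When every cell was thinned to 5000 UMIs, 92.5%, 93.6% and 93.6% of Cxcl10 FAPs (young PBS, old PBS, old rMETRNL) kept at least 1 Cxcl10 UMI. The corresponding shares were 7.16%, 11.3% and 5.85% in the other eligible FAPs and 11.3%, 10.1% and 8.89% in Cdh15-expressing myogenic cells. The rule itself set the share of the selected cells and of the other eligible FAPs, and the myogenic cells were not cut on Cxcl10, so these shares are a description and no background level is read from them. Unthinned shares were 30.3%, 28.0% and 28.4% in the other eligible FAPs and 35.0%, 30.7% and 29.6% in the myogenic cells, whose median depth was 28684.5 to 34620 UMIs. Thinning left out 0, 2 and 4 Cxcl10 FAPs, 2, 23 and 24 of the other eligible FAPs and 1, 1 and 6 myogenic cells.

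Of the Cxcl10 UMIs of kept cells, Cxcl10 FAPs held 17.6% (young PBS), 17.9% (old PBS) and 14.3% (old rMETRNL). Cxcl10 chose these cells but not the immune and endothelial gates, so their share is a description and is not ranked against those gates. The whole Pdgfra gate, which was not cut on Cxcl10, held 22.6%, 26.3% and 21.9% in the same order. The Ptprc gate held 36.4%, 21.9% and 32.9%, and the Pecam1 gate held 15.4%, 19.5% and 15.2%. The Ptprc gate left out cells with Pdgfra, and the Pecam1 gate those with Ptprc or Pdgfra. Cells with a single UMI of the marker were left out of both, so the gates do not cover all immune and endothelial cells. Cells with 3 or more Cxcl10 UMIs made up 23.3%, 13.5% and 19.8% of the Ptprc gate and 46.3%, 47.5% and 40.1% of the Pecam1 gate, at lower depth per cell. They were also found among the FAPs that the selection left out, at 32.5%, 38.6% and 33.5% of Pi16 or Dpp4 FAPs and 56.7%, 56.3% and 43.6% of cycling FAPs. Cycling FAPs had median depths of 36798 to 41986 UMIs. In myogenic cells the share was 9.4%, 8.0% and 8.1%.

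The share of Cxcl10 FAPs did not differ detectably between young and old mice given PBS. They were 346 of 1026 gated cells in young PBS (33.7%, exact 95% interval 30.8 to 36.7), 268 of 836 in old PBS (32.1%, 28.9 to 35.3) and 287 of 1034 in old rMETRNL (27.8%, 25 to 30.6). The ratio of old PBS to young PBS was 0.951 (0.807 to 1.12). The ratio of old rMETRNL to old PBS was 0.866 (0.730 to 1.03), so a lower share after rMETRNL was within counting error. Old rMETRNL against young PBS gave 0.823 (0.701 to 0.965). This last interval included 1 with a Cxcl10 minimum of 3 per 20000 UMIs (0.866, 0.737 to 1.02), without the Pi16, Dpp4 and cell cycle limits (0.903, 0.791 to 1.03) and as a share of eligible cells (0.946, 0.806 to 1.11). With 1 pooled library per group, differences between mice and conditions cannot be told apart.

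The cells carried FAP transcripts whichever side of the threshold they were on. Pdgfra, which the gate used, made up 240 CPM in the Cxcl10 FAPs of young PBS, 294 in those of old PBS and 319 in those of old rMETRNL, and 224, 336 and 281 in the other eligible FAPs. Among 9 further FAP markers, 3 were higher in Cxcl10 FAPs and 1 was lower, beside 6.87% and 1.84% of all tested genes. Ly6a, which encodes the surface antigen Sca-1, was higher by 0.33 ± 0.04 on the log2 scale (SE, 3 libraries, edgeR adjusted p = 3.34e-05). Against all other Pdgfra-gated cells, the difference of Ly6a was 0.059 (edgeR adjusted p = 0.35). Gsn, another of these 9 markers, made up a smaller part of the UMIs of Cxcl10 FAPs in each library. It had 10945 of 9419486 UMIs against 13845 of 9726356 in young PBS. The counts were 15310 of 6602454 against 19365 of 5347049 in old PBS, and 10263 of 7311235 against 17015 of 7881078 in old rMETRNL. Of the other markers given with the cell label, Ccl7 and Ptx3 were higher, as described further on. Mmp3, a matrix-degrading stromelysin, did not separate the populations. It was at 73.8 CPM in the Cxcl10 FAPs and 73.0 in the other eligible FAPs of young PBS, 105 and 159 in old PBS, and 149 and 100 in old rMETRNL, with an edgeR adjusted p of 0.913. Only 9.25%, 15% and 19.8% of Cxcl10 FAPs had an Mmp3 UMI at 5000 UMIs per cell, against 8.49%, 17.7% and 12.0% of the other eligible FAPs. Mmp3 was thus no marker of these cells by their own data.

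Markers of other cell types were summed on both sides of the threshold. The summed level of 13 macrophage and monocyte markers was 329, 340 and 337 CPM in Cxcl10 FAPs and 357, 426 and 365 in the other eligible FAPs, against 36340 to 38536 in the Ptprc gate, and 0 of the 13 passed the edgeR test or the DESeq2 test, with 2 at an unadjusted edgeR p under 0.05. The summed level of 4 tenocyte markers was 389, 399 and 315 CPM in Cxcl10 FAPs and 417, 512 and 291 in the other eligible FAPs, and of the 3 tested 0 passed the edgeR test or the DESeq2 test, with 1 at an unadjusted edgeR p under 0.05. The summed level of 8 T and NK cell markers was 2.65, 1.21 and 1.78 CPM in Cxcl10 FAPs and 1.85, 2.06 and 2.66 in the other eligible FAPs, and that of 4 neutrophil markers 0.743, 0 and 0.684 against 0.720, 1.68 and 0.634. Of these, the T cell receptor genes Cd3d and Cd3g and the neutrophil genes S100a9 and Retnlg were at 0 in the Cxcl10 FAPs of all 3 libraries. Of 3 pericyte markers tested, Rgs5 was higher (log2 difference 0.91) and Acta2 lower. In cells at or below the median share of macrophage markers, 580 genes were higher and 130 lower.

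Apart from Cxcl10, the transcriptome of Cxcl10 FAPs differed mostly by genes that were higher. Of 12167 genes tested, 836 were higher (6.87%) and 224 were lower (1.84%) in Cxcl10 FAPs than in the other eligible FAPs at an adjusted p under 0.05, and 91 and 30 of them by 2-fold or more. The median difference over all genes was -0.01 on the log2 scale. Of the 1060 genes called, 1015 moved the same way in each of the 3 libraries. The calls came from these same libraries, so this is a description and not separate evidence. The split depended on the scaling: with library size alone and no TMM factors, 539 genes were higher and 887 lower, and the median difference was -0.10. Without old rMETRNL, 507 genes were higher and 59 lower, and without young PBS 500 and 101. DESeq2 called 407 higher and 42 lower.

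Most of the tested interferon-inducible genes were higher in Cxcl10 FAPs. Among 11 interferon-inducible GTPases tested, proteins that attack the vacuoles of intracellular pathogens, 9 were higher and 0 lower, with a median log2 difference of 1.66. Of 28 other interferon-stimulated genes, 22 were higher and 0 lower, with a median of 0.98, and all 28 differences were positive. Of 14 genes of the MHC class I presentation list, which also holds Cd274, 13 were higher and 0 lower, with a median of 0.54. These shares stand beside 6.87% of all genes and a median of -0.01.

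Rsad2 was at 109 CPM in the Cxcl10 FAPs and 25.1 in the other eligible FAPs of young PBS, 96.6 and 18.0 in old PBS, and 101 and 19.8 in old rMETRNL. The level was above that of the other eligible FAPs in every library with no overlap between the groups, a log2 difference of 2.37 ± 0.08 (SE, 3 libraries, edgeR adjusted p = 9.76e-10). Ifit1 was at 478 and 133 in young PBS, 477 and 111 in old PBS, and 352 and 70.4 in old rMETRNL, a log2 difference of 2.17 ± 0.08 (edgeR adjusted p = 4.37e-07). Irf1, a transcription factor induced most directly by interferon-gamma, was at 246 and 81.7, 282 and 110, and 258 and 76.1 in the same order, a log2 difference of 1.67 ± 0.07. Parp14, an ADP-ribosyltransferase of the interferon response, differed by 1.38 ± 0.06. Cd274 encodes the T cell inhibitory ligand PD-L1, and its level was 15 against 2.88, 14.7 against 5.61 and 12.2 against 3.68 CPM. Its log2 difference was 1.95 ± 0.19 (edgeR adjusted p = 1.6e-05).

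The immunity-related GTPase Iigp1 was at 735 CPM in the Cxcl10 FAPs and 243 in the other eligible FAPs of young PBS, 1016 and 279 in old PBS, and 788 and 224 in old rMETRNL. All Cxcl10 FAP sums lay above all sums of the other eligible FAPs, and the log2 difference was 1.85 ± 0.05 (edgeR adjusted p = 5.1e-10). Gbp2 was at 196 and 72.3, 260 and 78.4, and 204 and 51 (log2 difference 1.80 ± 0.10), and among cells at or below the median share of macrophage markers the difference was 1.78 and did not pass the edgeR test (adjusted p = 0.133). Gbp5, which acts in inflammasome activation, differed by 2.27 ± 0.12, and Irgm1, a regulator of the family, by 1.66 ± 0.06. Of the MHC class I genes, B2m, the invariant light chain, was at 1568 and 1153, 1507 and 1179, and 1517 and 1039 CPM (log2 difference 0.54 ± 0.04). The peptide transporter gene Tap1 differed by 0.78 ± 0.08 and the heavy chain gene H2-K1 by 0.62 ± 0.04.

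Both remaining interferon genes of note had uneven baselines. Cxcl9, the neighbour and close relative of Cxcl10 that also acts through CXCR3, was at 1044 CPM in the Cxcl10 FAPs of young PBS, 948 in those of old PBS and 1172 in those of old rMETRNL, and at 384, 171 and 142 in the other eligible FAPs. Every Cxcl10 FAP sum was higher, and the log2 difference of 2.39 ± 0.48 missed the threshold in edgeR (adjusted p = 0.176). Without young PBS, where the other eligible FAPs were highest, it was 2.85 (edgeR adjusted p = 0.00726), and with DESeq2 over all libraries 2.42 (adjusted p = 1.0e-05). Isg15, a ubiquitin-like modifier, was at 388, 233 and 336 in Cxcl10 FAPs and 231, 68.6 and 146 in the other eligible FAPs, a log2 difference of 1.28 ± 0.26 (edgeR adjusted p = 0.148). Isg15 passed the threshold when old PBS or young PBS was left out, against all other Pdgfra-gated cells (1.10, edgeR adjusted p = 6.3e-08) and with DESeq2 (1.33, adjusted p = 0.000222).

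**Figure D2:**
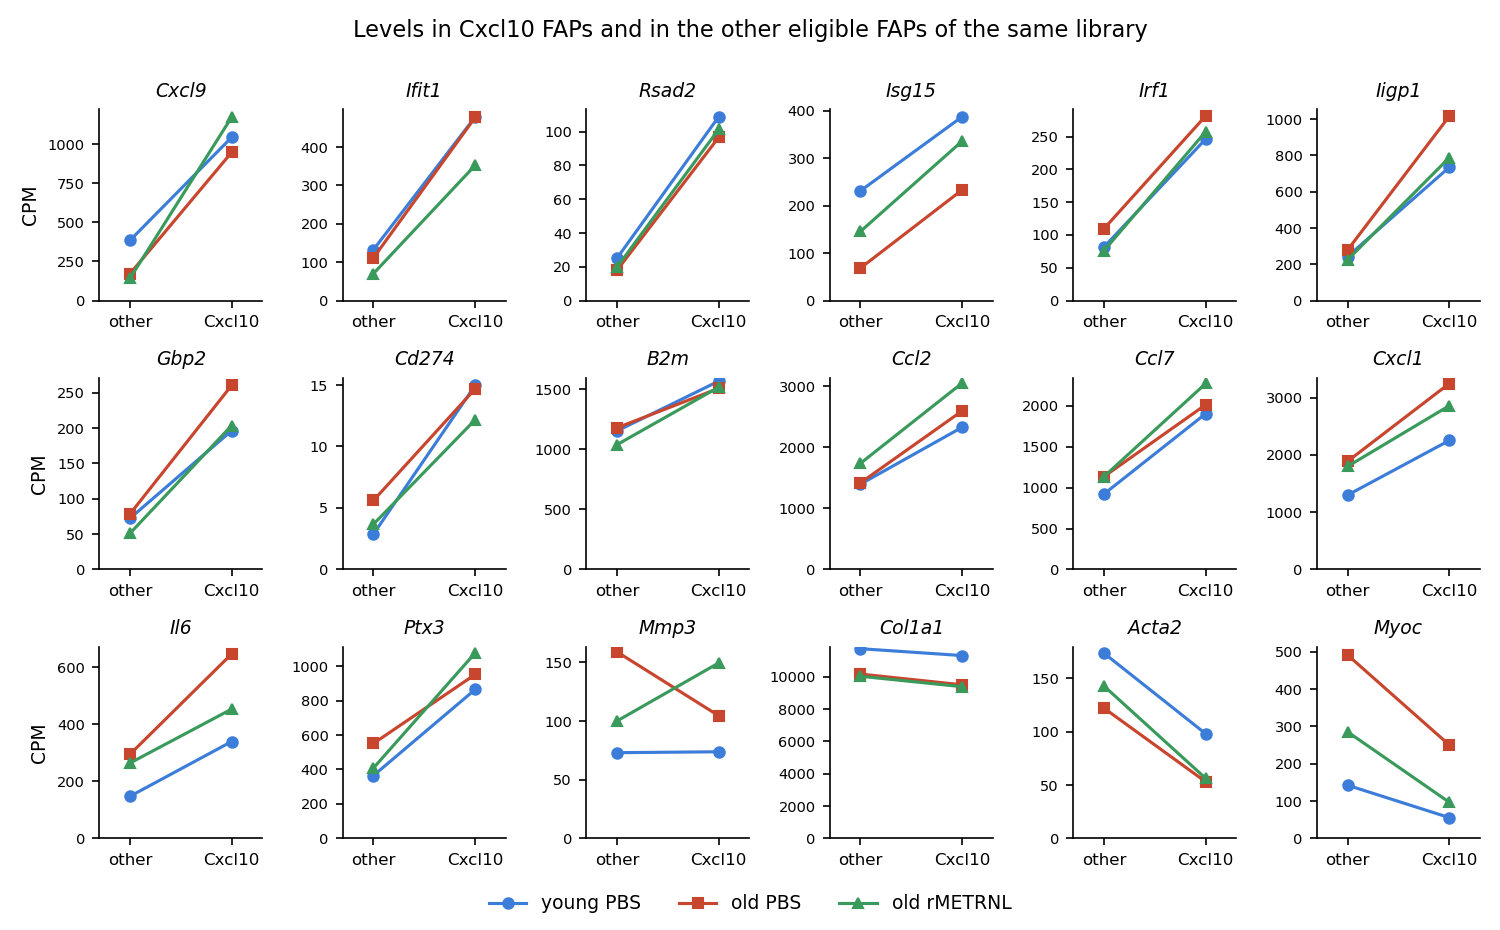
Levels of 18 genes (y axes, CPM, each from 0) in the other eligible FAPs (left of each panel) and the Cxcl10 FAPs (right), with 1 line per library. All lines climb for Ifit1, Rsad2, Irf1, Iigp1 and Ccl7, fall for Acta2 and Myoc, and run in different directions for Mmp3.

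Of 7 tested interferon receptor and ligand genes, 3 were higher and 0 lower, with a median log2 difference of 0.05, beside 6.87% of all genes higher. Ifngr1, the ligand-binding chain of the interferon-gamma receptor, was at 86.5, 85.6 and 93.4 CPM in Cxcl10 FAPs and 87.9, 106 and 94.4 in the other eligible FAPs (log2 difference -0.02 ± 0.07). Ifnar2 of the type I receptor was higher by 0.28 ± 0.05 (edgeR adjusted p = 0.00462, lost without old rMETRNL and with DESeq2), and the kinase gene Jak2 by 0.79 ± 0.06. Transcripts of the interferon genes Ifnb1 and Ifng were nearly absent from Cxcl10 FAPs, which had 0, 0 and 1 UMIs of Ifnb1 and 1, 0 and 0 UMIs of Ifng, where a count of 0 in young PBS allows a level of up to 0.318 CPM. The Ptprc gate had 373, 222 and 187 Ifng UMIs in 63, 38 and 33 cells. The CXCL10 receptor gene Cxcr3 had 1, 0 and 0 UMIs in Cxcl10 FAPs and 564, 359 and 475 in the Ptprc gate, where 461, 312 and 398 cells carried it.

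Most NF-kB response genes were higher as well. Of 18 NF-kB response genes tested, 17 were higher and 0 lower, with a median log2 difference of 0.67. Over all tested genes 6.87% were higher and 1.84% lower, the background also for the other lists of this paragraph. Of 12 cytokine and innate receptors, 7 were higher and 0 lower (median 0.42), and of 15 genes of the interleukin-6 family and acute phase, 9 were higher and 0 lower (median 0.62). Nfkbia was at 667, 756 and 736 CPM in Cxcl10 FAPs and 385, 586 and 562 in the other eligible FAPs, a log2 difference of 0.61 ± 0.09 (edgeR adjusted p = 0.0106). The leukocyte adhesion genes Icam1 and Vcam1 differed by 0.85 ± 0.07 and 0.72 ± 0.06. Ptgs2, the inducible cyclooxygenase, differed by 0.62 ± 0.05. The TNF receptor gene Tnfrsf1a was level, with a difference of 0.01 ± 0.05.

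Il6, the cytokine that signals to satellite cells and leukocytes, was at 339 CPM in the Cxcl10 FAPs of young PBS, 646 in those of old PBS and 453 in those of old rMETRNL, and at 147, 294 and 264 in the other eligible FAPs. The groups did not overlap, both were lowest in young PBS, and the log2 difference was 1.13 ± 0.08 (edgeR adjusted p = 2.09e-05). Socs3, a feedback inhibitor of interleukin-6 signalling, differed by 0.92 ± 0.06. Ptx3 encodes the pattern-recognition protein pentraxin 3 and was at 865, 952 and 1077 in Cxcl10 FAPs and 364, 551 and 408 in the other eligible FAPs. All sums of the Cxcl10 FAPs were higher, and the log2 difference of 1.24 ± 0.15 just passed the threshold (edgeR adjusted p = 0.0329). Ptx3 did not pass without young PBS (edgeR adjusted p = 0.148), without a filter on low counts, after thinning, or in cells at or below the median share of macrophage markers. Of 7 complement genes 6 were higher and 0 lower with a median of 0.41, beside 6.87% and 1.84% of all tested genes. Among the higher ones were Cfb (0.62 ± 0.05) and C3 (0.59 ± 0.10, lost without old rMETRNL).

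Some of the chemokines that attract monocytes and neutrophils were higher. Of 7 monocyte chemoattractants 4 were higher and 0 lower, with a median log2 difference of 0.70, beside 6.87% and 1.84% of all tested genes. Ccl2, the main ligand of CCR2 on inflammatory monocytes, was at 2327, 2595 and 3051 CPM in Cxcl10 FAPs and 1396, 1417 and 1737 in the other eligible FAPs. The groups did not overlap, and the log2 difference was 0.90 ± 0.04 (edgeR adjusted p = 3.57e-09). In cells at or below the median share of macrophage markers it was 0.91 and did not pass (edgeR adjusted p = 0.24). Ccl7, another CCR2 ligand, was at 1903, 2012 and 2272 against 922, 1135 and 1135 (log2 difference 1.05 ± 0.04). Of 4 ELR chemokines, which attract neutrophils, 2 were higher and 0 lower (median 0.57), and of 7 other chemokines 4 and 0 (median 0.60). The same shares of all genes stand beside these. DESeq2 called 5 monocyte chemoattractants, 1 ELR chemokine and 3 other chemokines. The neutrophil attractant Cxcl1 was at 2253, 3249 and 2861 against 1299, 1888 and 1800 (0.84 ± 0.03). Cxcl2, which shares its receptor, was at 551, 923 and 621 against 514, 416 and 439 and missed the threshold (0.67 ± 0.29, edgeR adjusted p = 0.399).

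**Figure D3:**
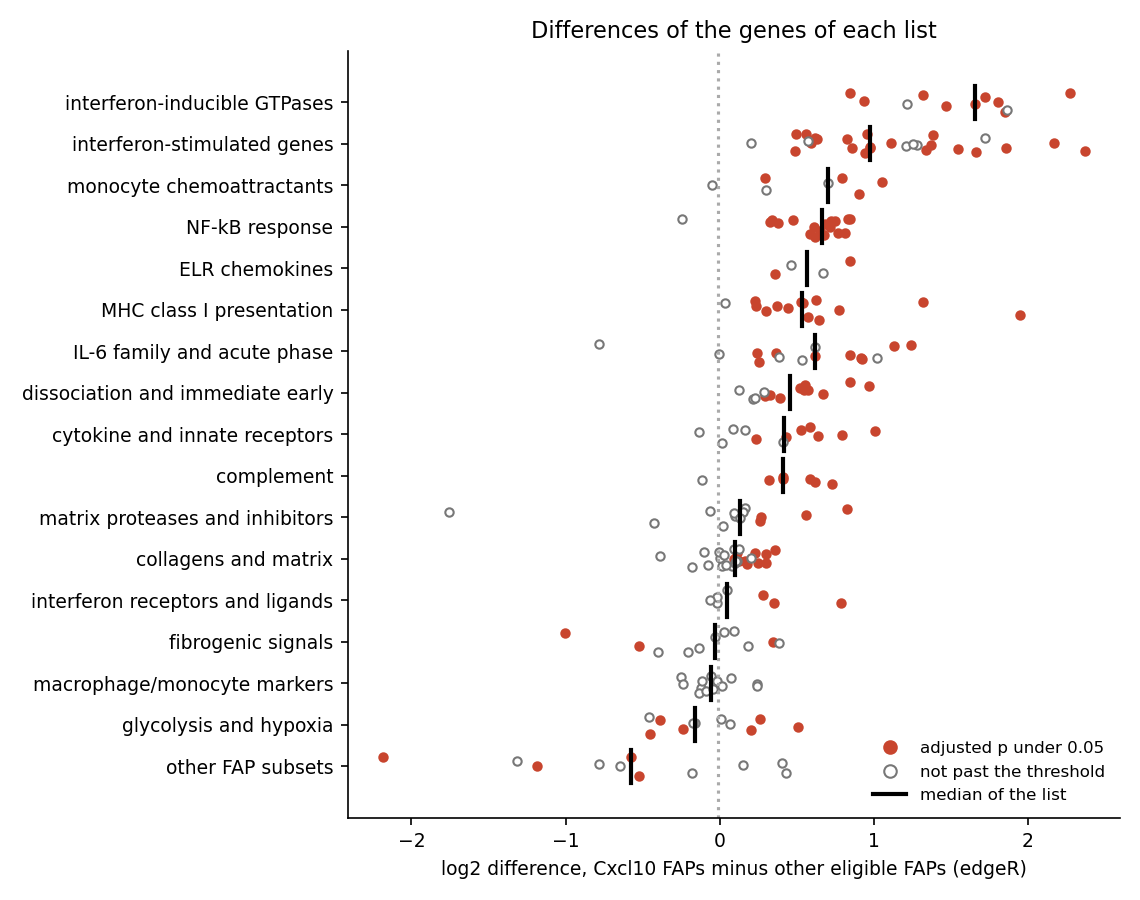
Log2 difference between Cxcl10 FAPs and the other eligible FAPs (x axis, edgeR) for each tested gene of the gene lists (y axis), filled where the adjusted p was under 0.05, with a bar at the median of each list and a dotted line at the median of all genes (-0.01). Among the lists plotted, the medians run from 1.66 for the interferon-inducible GTPases and 0.98 for the interferon-stimulated genes down to -0.58 for markers of other FAP subsets.

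Of 26 collagen and matrix genes 10 were higher and 0 lower with a median log2 difference of 0.10, beside 6.87% and 1.84% of all genes, but with library size alone 2 were higher and 1 lower with a median of 0.01, so no direction is given for the list. Without young PBS 2 of them were higher, without old rMETRNL 5 and without old PBS 14. Col1a1, the main fibrillar collagen, was at 11312, 9502 and 9386 CPM in Cxcl10 FAPs and 11738, 10167 and 10031 in the other eligible FAPs (log2 difference 0.01 ± 0.02, or -0.08 with library size alone). The same background applies to the following lists. Fibrogenic signals had 1 of 11 genes higher and 2 lower (median -0.03), and trophic factors 3 of 13 higher and 1 lower (median 0.12). Matrix proteases and their inhibitors had 4 of 13 higher and 0 lower (median 0.13). Adipogenic regulators had 1 of 7 higher and 0 lower (median 0.16), apoptosis regulators 5 of 13 and 0 (median 0.12), and genes of glycolysis and hypoxia 3 of 11 higher and 3 lower (median -0.16). With library size alone these became 2 higher and 1 lower for the proteases, 3 and 1 for the apoptosis regulators and 1 and 5 for glycolysis and hypoxia. Leaving out 1 library, old PBS, old rMETRNL or young PBS in that order, gave 7, 2 and 2 proteases higher, 3, 2 and 2 apoptosis regulators higher and 6, 0 and 0 glycolysis and hypoxia genes lower, so no direction is given for these lists. Among the apoptosis regulators Casp4, an inflammatory caspase, differed by 0.96 ± 0.08. Metrnl itself was at 62.3, 81.3 and 84.7 against 63.2, 90.7 and 80.1, a log2 difference of 0.07 ± 0.06. Immediate early genes, which tissue dissociation is known to induce, were higher in 10 of 14 cases and lower in 0 (median 0.46), and their part in the other differences was not tested.

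Genes that were lower in Cxcl10 FAPs included Acta2 and markers of other FAP subsets. Acta2, the smooth muscle actin of myofibroblasts, was at 98.1, 53.0 and 56.2 CPM in Cxcl10 FAPs and 174, 122 and 143 in the other eligible FAPs. No library overlapped, and the log2 difference was -1.0 ± 0.09 (edgeR adjusted p = 0.000224). Inhba, which encodes the activin A subunit, differed by -0.52 ± 0.07. Of 11 tested markers of other FAP subsets 0 were higher and 4 lower, with a median of -0.58, beside 1.84% of all genes lower. The lower ones were Myoc, Inmt, Sema3c and Inhba, each of which lost its call under at least 1 alternative. Against all other Pdgfra-gated cells the log2 difference of Inhba was -0.32 (edgeR adjusted p = 0.57) and that of Inmt -1.58 (edgeR adjusted p = 0.0585). Myoc did not pass after thinning (edgeR adjusted p = 0.244), nor Sema3c with DESeq2 (adjusted p = 0.0916). Myoc, a secreted glycoprotein, was at 55.5, 250 and 96.7 against 142, 492 and 286 (log2 difference -1.19 ± 0.12), and Sema3c, a secreted guidance cue, differed by -0.58 ± 0.10. Gdf10, a TGF-beta family ligand counted with the trophic factors, differed by -0.74 ± 0.11, and by -0.23 in cells at or below the median share of macrophage markers (edgeR adjusted p = 0.57).

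The 10 highest differences among called genes, by the fixed rule, were those of Saa1, Rsad2, Gbp5, Serpina3f, Ifit1, A930037H05Rik, Ccl20, Asb4, Ifi208 and Cd274. Rsad2, Gbp5, Ifit1, Cd274 and Ifi208, a member of the interferon-inducible p200 family (log2 difference 1.98 ± 0.28), belong to the interferon response. Serpina3f, a serine protease inhibitor, was at 27.9, 39.2 and 58.3 CPM against 9.97, 5.42 and 11.9 (log2 difference 2.20 ± 0.22). Saa1, an acute phase apolipoprotein, rested on few cells. Its 83, 75 and 22 UMIs in Cxcl10 FAPs included 34, 56 and 19 from 1 cell of each library. Without the highest cell of each sum, the difference was 1.43 (edgeR adjusted p = 0.384), and without old PBS or without young PBS, and with DESeq2, the call was also lost. Ccl20, a ligand of CCR6, came from 11, 4 and 5 Cxcl10 FAPs and did not pass against all other Pdgfra-gated cells (0.97, edgeR adjusted p = 0.563).

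Among the 10 lowest differences were those of Cx3cr1, Inmt, Stmn2, Efhd1, Cdh13, Glipr1, 2810454H06Rik, 3300005D01Rik and Camk4. Cx3cr1 is a macrophage receptor, and in the other eligible FAPs 60 of 85, 30 of 52 and 53 of 56 of its UMIs came from 1 cell per library. Inmt, a methyltransferase, was at 0.743, 6.97 and 0.957 CPM against 5.76, 20.4 and 11.9. Its log2 difference was -2.18 ± 0.33 (edgeR adjusted p = 0.00571). Of the others named, 2810454H06Rik lost its call without old PBS and without young PBS, Cdh13 and Camk4 lost theirs without old rMETRNL and without young PBS, and Efhd1 and 3300005D01Rik lost theirs without old rMETRNL. With DESeq2 Stmn2, Efhd1, Glipr1 and Camk4 did not pass. Against all other Pdgfra-gated cells Inmt, Stmn2 and 2810454H06Rik did not, and in cells at or below the median share of macrophage markers these and Cdh13 did not. Apart from Inmt, the highest level of the 10 genes in any sum was 13.3 CPM, that of 3300005D01Rik in the other eligible FAPs of old rMETRNL. Of 11209 tested genes with at least 100 UMIs, 59 had over 50% of the UMIs of a sum in 1 cell, and 9 of these were called.

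Within the eligible FAPs, summed over all libraries, the interferon genes were higher at each step in Cxcl10. The summed level of the interferon-stimulated genes was 2061 CPM in the 709 cells with no Cxcl10 UMI, 2231 in the 290 with 1 to 2, 2748 in the 167 with 3 to 9, 3152 in the 252 with 10 to 29, 3960 in the 333 with 30 to 99 and 6076 in the 149 with 100 or more. In young PBS alone the interferon-stimulated genes were not higher at each step, at 3820 CPM with 3 to 9 UMIs and 3691 with 10 to 29. Over all libraries the GTPases ran from 569 at 0 to 2912 at 100 or more, and the monocyte chemoattractants from 3042 to 7440. NF-kB response genes ran from 2640 to 4603 and collagens from 70803 to 69978. The GTPases and interferon-stimulated genes thus spanned the widest ranges of these lists, relative to their level at 0. Ifit1 went from 103 CPM at 0 to 982 at 100 or more and Rsad2 from 18.3 to 231, while Acta2 went from 152 to 48.8. Median depth ran from 22708 UMIs per cell at 0 to 26369 at 100 or more, and its part in these levels was not tested. Bands were cut on Cxcl10, so these values are a description.

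**Figure D4:**
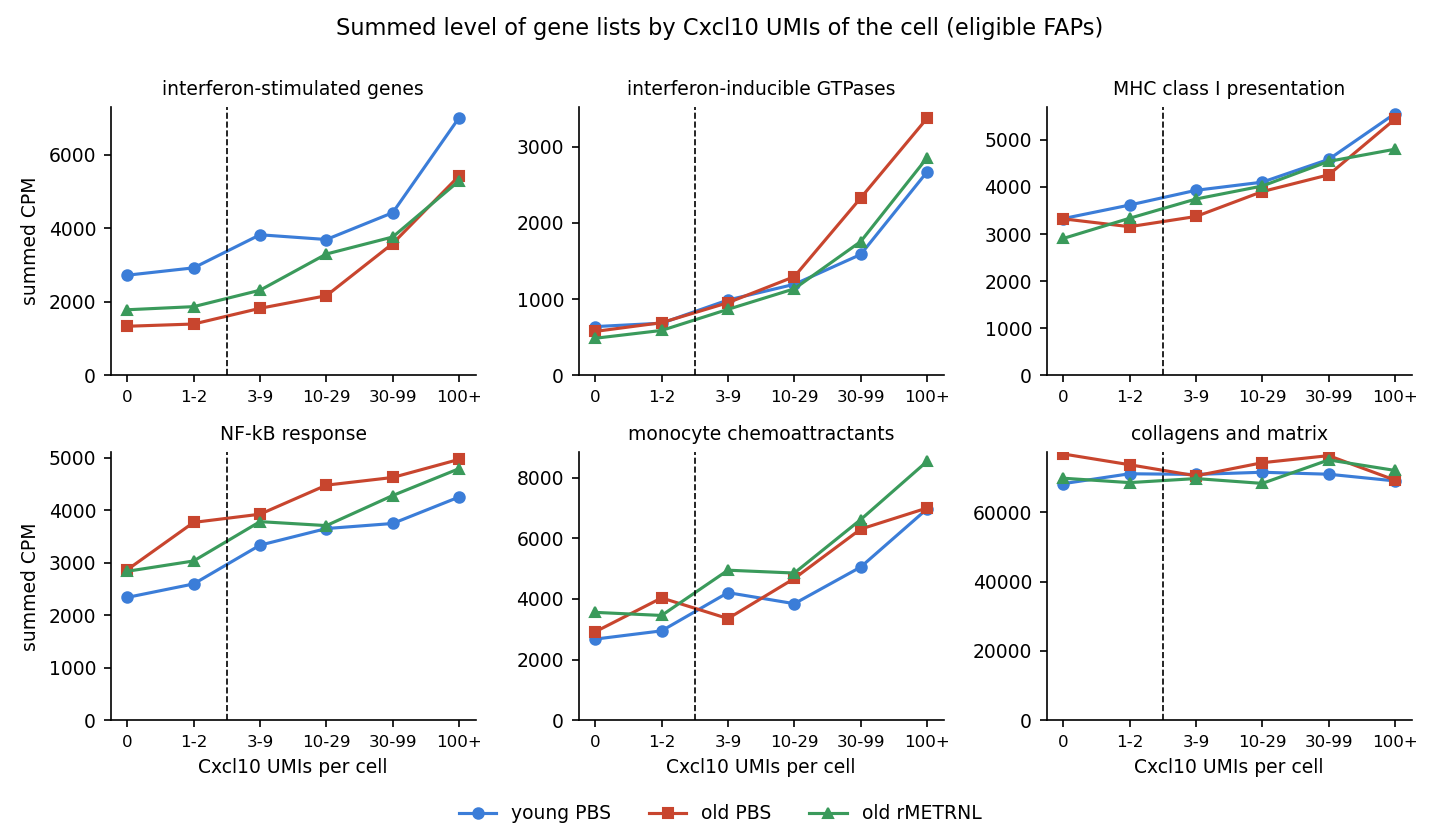
Summed level of 6 gene lists (y axes, CPM, each from 0) by the number of Cxcl10 UMIs of the cell (x axis), with 1 line per library and a dashed line at the threshold of 3 UMIs. In all libraries together the interferon-stimulated genes go from 2061 to 6076 and the collagens from 70803 to 69978.

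Cell by cell among Cxcl10 FAPs, the interferon-stimulated genes varied with MHC class I genes and with Cxcl10. After thinning to 5000 UMIs, the Spearman correlation of the interferon-stimulated genes with MHC class I was 0.45 over 346 cells of young PBS, 0.46 over 266 of old PBS and 0.45 over 283 of old rMETRNL. With Cxcl10 it was 0.33, 0.47 and 0.35. The correlation with the NF-kB response genes was -0.18, -0.03 and -0.11, which in sparse counts is no finding. NF-kB response genes varied with the monocyte chemoattractants, at 0.44, 0.29 and 0.45. These are descriptions over cells of 1 library, which share its free RNA and whose thinned totals make the lists compete for UMIs.

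A Cxcl10 split also went with interferon genes in cells outside the selection. Among eligible FAPs, the summed interferon-stimulated genes of the cells at 3 or more Cxcl10 UMIs over those below was 1.65 in young PBS, with 2.37 for old PBS and 2.0 for old rMETRNL. It was 1.83, 2.24 and 2.09 in Pi16 or Dpp4 FAPs, 1.63, 1.87 and 2.89 in cycling FAPs, 1.78, 1.83 and 2.21 in Tnmd-expressing cells and 1.64, 1.97 and 2.16 in the Pecam1 gate. The pattern of Cxcl10 with interferon genes was therefore not particular to the selected FAPs. In each of these populations and libraries the cells at 3 or more Cxcl10 UMIs were deeper at the median, from 26299 against 25318 UMIs in the eligible FAPs of young PBS to 8386 against 3894.5 in the Pecam1 gate of old PBS. The part of depth in these ratios was not tested.

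The motifs were also counted over the gene lists. The response element core was found in 127 of the 626 higher genes that had a RefSeq promoter (20.3%), in 9 of 170 lower genes (5.29%), in 8.71% of 9484 tested genes and in 8.56% of all 32851 promoters. An NF-kB match of either form was found in 10.5% of higher genes, 6.47% of lower genes, 8.07% of tested genes and 5.85% of all promoters. By list, the core was present in 9 of 9 GTPases and 12 of 22 interferon-stimulated genes, but in 2 of 14 NF-kB response genes, of which 9 of 14 held an NF-kB match. An NF-kB match was also found in 3 of 9 GTPases and 3 of 22 interferon-stimulated genes, and the core in 3 of 16 collagen and matrix genes and 4 of 12 genes of MHC class I presentation. Monocyte chemoattractants had the core in 0 of 4 and an NF-kB match in 2 of 4. The GAS element TTCNNNGAA was found in 13.4% of higher, 4.12% of lower and 8.09% of tested genes, and the AP-1 site TGANTCA in 10.4%, 8.24% and 6.40%. These are letter matches in a fixed window and not measured binding.

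Between libraries, few genes of the Cxcl10 FAPs differed by 2-fold. The counts are of genes with a ratio of 2-fold or more in either direction, with 0.5 UMI added to each sum. Only genes with at least 50 UMIs over both libraries entered, and no interval was used for the count. From young PBS to old PBS, 135 of 10448 genes were higher (1.29%) and 144 lower (1.38%). From old PBS to old rMETRNL, 49 of 10103 were higher (0.485%) and 86 lower (0.851%). From young PBS to old rMETRNL, 63 of 10526 were higher (0.599%) and 76 lower (0.722%). The comparisons share libraries, so a high or low value in old PBS enters the first and second in opposite directions. In cells thinned to 5000 UMIs the counts were 69 and 59, 32 and 43, and 24 and 28.

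Interferon-stimulated genes had lower levels in the Cxcl10 FAPs of old PBS than in those of young PBS, whereas the GTPases had slightly higher levels. Of 28 interferon-stimulated genes measured, 2 had a ratio of old PBS to young PBS above 1, beside 4963 of 10447 for all genes. The median log2 ratio was -0.50, beside -0.02 for all genes. The other eligible FAPs had a median of -1.02. Bst2, a membrane protein that tethers budding viruses, was at 1013 CPM in young PBS, with 482 for old PBS and 709 for old rMETRNL. The ratio of old PBS to young PBS was 0.476 (0.457 to 0.495) and that of old rMETRNL to old PBS 1.47 (1.41 to 1.54). Ifi44 and Oas1a, at ratios of 0.477 and 0.473 with age, were the others past 2-fold. Ifit1 and Rsad2, by contrast, had ratios of 0.998 (0.953 to 1.04) and 0.888 (0.803 to 0.981) with age.

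After rMETRNL, 21 of the 28 interferon-stimulated genes had a ratio to old PBS above 1, beside 5068 of 10102 for all genes. Their median log2 ratio was 0.20 (0.39 in the other eligible FAPs). Of the 28, 0 were past 2-fold, beside 0.485% of all genes higher and 0.851% lower. Against young PBS 1 of 28 was above 1, with a median of -0.31, beside 5062 of 10525 for all genes. Isg15 was at 388, 233 and 336 CPM in young PBS, old PBS and old rMETRNL, and the interferon regulatory factor Irf7 at 302, 153 and 207. Both were lowest in old PBS. The summed list was at 4604, 3202 and 3605 CPM in Cxcl10 FAPs, 2785, 1348 and 1804 in the other eligible FAPs and 4546, 2233 and 3640 in the Ptprc gate. It was at 6058, 6152 and 4943 in the Pecam1 gate. In the Cdh15 gate it was at 660, 321 and 508. Old PBS was thus lowest in FAPs, in the Ptprc gate and in the Cdh15 gate, and not in the Pecam1 gate. The GTPases had a median log2 ratio of 0.17 with age (-0.37 in the other eligible FAPs) and -0.21 with rMETRNL, and Iigp1 was highest in old PBS.

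**Figure D5:**
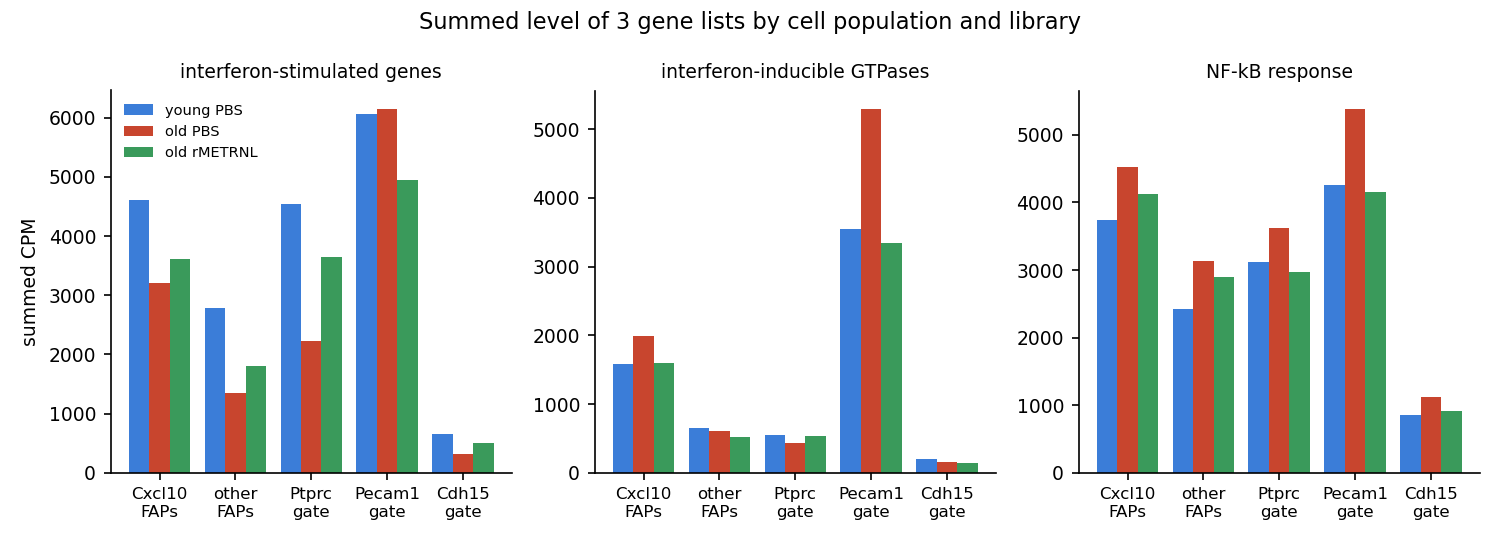
Summed level of the interferon-stimulated genes, the interferon-inducible GTPases and the NF-kB response genes (y axes, CPM, bars from 0) in 5 cell populations, with 1 bar per library. Interferon-stimulated genes of Cxcl10 FAPs stand at 4604 in young PBS, with 3202 for old PBS and 3605 for old rMETRNL, and old PBS has the lowest bar of that list also in the other eligible FAPs, the Ptprc gate and the Cdh15 gate.

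Between libraries, levels of the interleukin-6 family varied from gene to gene. Of 15 genes of the interleukin-6 family and acute phase, 4 were past 2-fold higher in old PBS than in young PBS and 1 lower, beside 1.29% and 1.38% of all genes. Il33, an alarmin that maintains regulatory T cells in muscle, was at 272 CPM in young PBS, with 676 for old PBS and 355 for old rMETRNL, and had ratios of 2.49 (2.37 to 2.61) with age and 0.525 (0.50 to 0.552) with rMETRNL. Lif, at 9.24, 28.3 and 10.3, had ratios of 3.07 (2.37 to 4.0) and 0.362 (0.273 to 0.476). Il6 had ratios of 1.91 (1.82 to 2.0) and 0.701 (0.669 to 0.734). Il33, Lif and Il6 were highest in old PBS. The list as a whole had a median log2 ratio of 0.35 with age and 0.31 from young PBS to old rMETRNL. In both, 11 of 15 genes were above 1, beside 4963 of 10447 and 5062 of 10525 for all genes. With rMETRNL 2 genes were past 2-fold higher and 2 lower (median -0.26), beside 0.485% and 0.851% of all genes.

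Of 12 measured markers of other FAP subsets 7 were past 2-fold higher with age, beside 1.29% of all genes, with a median log2 ratio of 1.26 in Cxcl10 FAPs and 1.23 in the other eligible FAPs. With rMETRNL 0 of 11 were higher and 4 lower (median -0.59), beside 0.485% and 0.851% of all genes. Myoc was at 55.5, 250 and 96.7 CPM, with a ratio of 4.51 (4.08 to 4.98) with age and 0.386 (0.353 to 0.422) with rMETRNL. Inhba had ratios of 3.89 (3.53 to 4.28) and 0.665 (0.616 to 0.717). Of 6 monocyte chemoattractants measured, 0 were past 2-fold in the age or the rMETRNL comparison. Of 7 other chemokines 2 were lower with age and 2 higher with rMETRNL, beside 1.38% and 0.485% of all genes. Single cells carried much of some chemokines. In Cxcl10 FAPs 1 cell held 624 of 1225 Ccl5 UMIs and 1 cell 97 of 165 Ccl20 UMIs in young PBS, and 1 cell 273 of 453 Cxcl13 UMIs in old rMETRNL. Ccl2 had ratios of 1.12 (1.09 to 1.14) with age and 1.18 (1.15 to 1.2) with rMETRNL, and Cxcl1 1.44 (1.41 to 1.47) and 0.881 (0.864 to 0.898). Of 17 NF-kB response genes 15 had a ratio above 1 with age (median log2 ratio 0.33), 1 with rMETRNL (median -0.09) and 14 from young PBS to old rMETRNL (median 0.18), and 0 were past 2-fold in any of these. Over all genes, 4963 of 10447, 5068 of 10102 and 5062 of 10525 had a ratio above 1 in the same order.

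The genes at the ends of the age comparison, by the fixed rule, were the myofibre genes Mb, Myh1, Ckm, Tnnc2 and Myl1 as the highest, and Ccl5, Fbn2, Ccl20, Slc38a4 and Col11a1 as the lowest. Myofibre genes came largely from 1 old PBS cell, which held 123 of 129 Mb UMIs, 160 of 164 Myh1 UMIs and 229 of 281 Ckm UMIs. Without the highest cell of each gene, the ratio of Ckm was 11.6 with age. The 5 myofibre genes together were also highest in old PBS in the other eligible FAPs, at 5.0, 87.7 and 20.3 CPM, and in the Ptprc gate, at 35.0, 198 and 61.7. Fbn2, a fibrillin of developing matrix, was spread over 181, 31 and 61 Cxcl10 FAPs. It was at 58.5, 9.84 and 16.1 CPM, and its ratio with age was 0.168 (0.128 to 0.218).

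With rMETRNL the highest ratios to old PBS were those of Mmp13, Ccl5, Gm42047, Tnfsf8 and Tnn, and the lowest those of the same 5 myofibre genes. Mmp13, a collagenase, was at 5.31, 1.51 and 14.5 CPM, from 23, 10 and 13 cells, with 49 of the 106 UMIs of old rMETRNL in 1 cell. From young PBS to old rMETRNL the highest were Idi1, Mmp13, Trnp1, Inhba and Fez1 and the lowest Megf6, Slc38a4, Gm26802, Ccl20 and Fbn2. Inhba was at 62.2 in young PBS and 161 in old rMETRNL, and Idi1, an enzyme of sterol synthesis, at 3.72 and 10.9.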

How the data were processed

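The unit is the UMI. The authors deposited filtered count matrices for 3 droplet libraries, 1 per group, each from 3 pooled mice. Per the file headers and the submitters' processing notes, the counts came from Cell Ranger 5.0.0, with 3.1.0 also named in the notes, on mm10. No ambient RNA was removed in the deposited counts as far as the sources used here state. Cells were selected and summed in Python 3.11.15 (scanpy 1.11.5), genes tested with edgeR 4.0.16 (TMM factors, low-count filter, library as block), and DESeq2 1.42.0 was an alternative. The edgeR step was tested on simulated data. Levels are CPM, UMIs per 1000000 UMIs of the summed cells. Promoters are from RefSeq GRCm38.p6 and gene positions from the GENCODE annotation of GRCm38. Genes named in the text are list genes and, among called genes with at least 100 UMIs, the 10 highest and 10 lowest differences, or, between libraries, the 5 highest and 5 lowest ratios. Genes such as Rgs5 and Gdf10 are list members. The cells and lists were chosen with earlier results of these data known. Leave-one-library-out, thinning to 5000 UMIs, other thresholds and scaling were tried. Cxcl11, Mx1, Mx2 and Wisp2 were not analysed here, and some results that the rule names are not reported here. Intervals cover counting error only.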

Additional observations from a re-analysis of the deposited data

Results flagged for a closer look

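Ccl5, a lymphocyte-attracting chemokine, had opposite ratios in Cxcl10 FAPs and in the other eligible FAPs. From young PBS to old PBS its ratio was 0.0675 in Cxcl10 FAPs and 14.5 in the other eligible FAPs. From old PBS to old rMETRNL it was 4.72 in Cxcl10 FAPs and 0.0852 in the other eligible FAPs. Cxcl10 FAPs over the other eligible FAPs gave 45.2 in young PBS, with 0.211 for old PBS and 11.7 for old rMETRNL. The difference between these ratios was not tested. The UMIs came from few cells: 1225 UMIs in 18 Cxcl10 FAPs of young PBS, 624 of them in 1 cell, and 223 UMIs in 7 of the other eligible FAPs of old PBS, 119 of them in 1 cell.

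Saa3, an acute phase gene, was higher in Cxcl10 FAPs than in the other eligible FAPs by ratios of 11.8 in young PBS and 12.1 in old PBS, and the ratio was 0.296 in old rMETRNL. The difference between libraries was not tested. Of the 215 Saa3 UMIs in the other eligible FAPs of old rMETRNL, 177 came from 1 cell.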

How the results depend on the processing

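Cxcl10 FAPs and other eligible FAPs were paired within libraries by the library block. Between libraries, no paired analysis was possible because the libraries share only the replicate number 1 and each group has 1 library. The numbers of interferon-stimulated genes, GTPases, MHC class I genes, NF-kB response genes and monocyte chemoattractants called higher stayed within 1.5 times under all 12 alternatives. Genes higher were 407 with DESeq2, 1831 against all other Pdgfra-gated cells, 539 without TMM factors, 487 after thinning and 500 to 783 with 1 library left out. Genes lower were 42, 1533, 887 and 129 in those alternatives and 59 to 222 with 1 library left out, 130 in cells low in macrophage markers and 456 without a filter on low counts. Collagen and matrix genes higher were 4 with DESeq2, 2 without TMM factors and 2 to 14 with 1 library left out. Without TMM factors the log2 differences of Col1a1 and Col1a2 reversed to -0.082 and -0.0018. Shares of Cxcl10 FAPs in young PBS, old PBS and old rMETRNL were 46.6%, 47.2% and 42.1% without the Pi16, Dpp4 and cell cycle limits, and 47.7%, 49.7% and 45.1% of eligible cells. With a minimum of 200 UMIs, genes past 2-fold higher and lower were 43 and 30 with age, 6 and 21 with rMETRNL, and 18 and 20 from young PBS to old rMETRNL. After thinning they were 69 and 59, 32 and 43, and 24 and 28. The cause of these changes was not tested. Removal of the highest cell of each gene, chosen after seeing the data, gave 898 higher and 243 lower. In simulated data 98% of genes changed by 1 on the log2 scale were recovered. The simulation gave every gene the same dispersion and the libraries no differences, and only better-covered genes were changed. The real sums can vary more, so this share is not the power of the real comparison.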
